A study of Canis lupus familiaris with 40 samples.

Results

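PMN-MDSCs were compared directly with M-MDSCs of tumor-bearing dogs, over all libraries whose sample type is PMN-MDSC or M-MDSC. This gave 14 of the 40 RNA-Seq libraries, 9 of PMN-MDSCs and 5 of M-MDSCs. Both subsets were flow-sorted from the mononuclear (PBMC) layer of blood after density gradient centrifugation, and both lacked CD5, CD21 and MHC II and carried CD11b. PMN-MDSCs were in addition CADO48A+ and CD14-, and M-MDSCs were CD14+ and CADO48A-. CADO48A is an antibody against an unknown antigen of dog polymorphonuclear leukocytes, and CD14 is a lipopolysaccharide co-receptor of monocytes. For comparison, C PMNs (10 libraries) were CADO48A+ neutrophils of tumor-bearing dogs from the dense pellet beneath that layer, and C MONOs (8 libraries) were CD14+ MHC II+ monocytes from the PBMC layer. H PMNs (5 libraries) and H MONOs (3 libraries) were the same cells of healthy dogs.

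Myeloid-derived suppressor cells (MDSCs) are myeloid cells that accumulate in cancer and chronic inflammation and restrain T cells. The polymorphonuclear subset has the segmented nucleus and granules of a neutrophil, a short-lived phagocyte with little RNA. The monocytic subset resembles the monocyte, a longer-lived cell that gives rise to macrophages. Blood neutrophils normally sink through the gradient, so that finding them in the PBMC layer is part of how PMN-MDSCs are recognised. As models the populations have limits. The study tested suppression of T cells for the CADO48A+ cells and not for the CD14+ cells. The dogs had tumors of several kinds, and the labels give no dog, tumor, sorter or hospital for a library, so that 2 libraries may share a dog. The p-values below therefore measure the spread between libraries only. GEO's labels give 9 PMN-MDSC and 10 C PMN libraries, although the design text speaks of 8 and 9, and all of them were kept.

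The files list Ensembl gene IDs without names, and no ID was matched to a symbol here. Genes are therefore described in groups, and 4 IDs, chosen by a rule, stand for single genes. The sort antigens and the usual marker genes could not be looked up by name. The labelled cell types were checked instead with 2 lists of 50 genes made from the healthy dogs' libraries alone. The PMN list holds the genes with the highest mean in H PMNs among those at least 50-fold lower in H MONOs, and the MONO list is its mirror image.

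PMN-MDSC library 9 stood apart before any comparison was made. It held 6299310 counts on genes, against 21918992 to 43296791 in the other 8 PMN-MDSC libraries and 22202374 to 41055367 in the M-MDSC libraries. Genes with at least 10 counts numbered 3959 in library 9, 9582 to 11388 in the other PMN-MDSC libraries and 10484 to 11936 in M-MDSCs. The 10 most abundant genes took 58.7% of its counts, against 14.8% to 28.9% in the other 8 and 10.7% to 14.9% in M-MDSCs. Every pair of libraries within a subset differed by more than sampling noise, with a lowest chi-square per degree of freedom of 155. The counts of calls, their sizes and the lineage lists are therefore given with and without library 9. C PMN library 7, with 4229857 counts, was the only other library of the 40 under 10000000 counts.

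**Figure D1:**
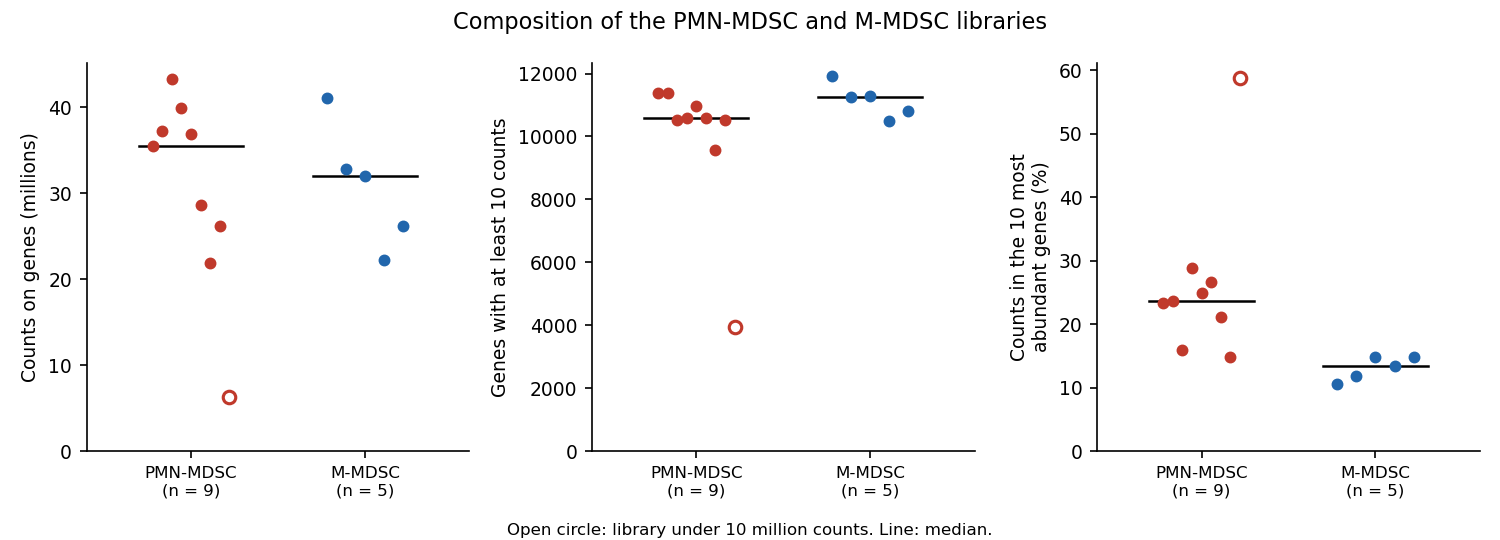
Counts on genes in units of 1000000, genes with at least 10 counts, and percent of counts in the 10 most abundant genes, for each PMN-MDSC and M-MDSC library (points) with the median of each subset (lines). The open circle is PMN-MDSC library 9, with 6299310 counts and 3959 such genes.

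A few transcripts made up more of a PMN-MDSC library than of an M-MDSC library. The top 10 genes held 26.4% of the counts on average in PMN-MDSCs (14.8% to 58.7%, n = 9) and 13.1% ± 1.85 in M-MDSCs (SD, n = 5). Only 1 of the 9 PMN-MDSC values, 14.8% in library 8, lay within the range of the M-MDSC libraries. The difference passed a two-sided exact permutation test over libraries (p = 0.0170, or 0.0340 adjusted over the 2 measures). Without library 9 the PMN-MDSC mean was 22.4% ± 4.91 (SD, n = 8; exact permutation p = 0.00466), and without M-MDSC library 1 or 2 the exact permutation p was 0.0587 or 0.0559. The number of genes with at least 10 counts did not pass the same test (9947 ± 2310 against 11156 ± 548, exact permutation p = 0.305). Without library 9 the PMN-MDSC mean was 10695.5 ± 578, and the difference shrank from -1209 to -461 genes (exact permutation p = 0.186). Counted at 1 CPM (counts scaled to a library total of 1000000) instead, the difference passed it without adjustment (8658 ± 1580 against 10013 ± 210.5, exact permutation p = 0.0360). Leaving out any M-MDSC library ended that call (lowest exact permutation p = 0.0825). Leaving out library 9 moved the difference from -1355 to -839 genes and kept it (exact permutation p = 0.000777). The p-values at 1 CPM and with libraries left out are unadjusted. The adjustment over 2 measures above does not allow for the count at 1 CPM.

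Across genes, each library ranked its transcripts more like its own subset than like the other. Spearman's rho over the 11649 genes tested had a median of 0.877 over the 36 pairs of PMN-MDSC libraries, 0.924 over the 10 pairs of M-MDSC libraries and 0.764 over the 45 mixed pairs. These pairs share libraries, and rho is given as a description. Library 9 was the least like both subsets, with a median rho of 0.643 to its own and 0.610 to M-MDSCs. The spread between libraries, as the biological coefficient of variation of edgeR, was 0.947 in PMN-MDSCs, 0.784 without library 9, and 0.673 in M-MDSCs.

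PMN-MDSCs and M-MDSCs differed in 2671 of the 11649 genes tested, which is 22.9%, by edgeR's quasi-likelihood test (FDR limit 0.05, Benjamini-Hochberg adjustment). Of these genes, 1289 (11.1%) were higher and 1382 (11.9%) were lower in PMN-MDSCs. Most of them differed by at least 2-fold, 1256 and 1356 genes. The median difference was 5.74-fold among the higher genes and 6.44-fold among the lower ones, and 824 and 986 genes reached 4-fold. In bulk samples such as these, fewer cells that express a gene cannot be told apart from less of its RNA per cell.

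Without library 9, 4356 of 11603 genes (37.5%) were called, 2144 (18.5%) higher and 2212 (19.1%) lower. These calls were smaller, with a median of 3.16-fold among the higher and 4.22-fold among the lower genes. At least 2-fold was reached by 1756 (81.9%) and 1956 (88.4%), and 4-fold by 866 and 1166. Of the 2671 genes called with library 9, 2657 were called again in the same direction, 4 were not called and 10 were not tested. Single libraries left out in turn gave 2069 to 4356 calls, and no library other than 9 moved the count by over 1.5 times. The low library also bears on the scaling. TMM normalization, which assumes that most genes do not differ, gave it a factor of 0.151, against 0.926 to 1.06 in the other PMN-MDSC libraries and 1.31 to 1.62 in M-MDSCs. Scaling by library size alone kept the number of calls (3041) but moved the median gene from 0.14 to -0.65 on the log2 scale, and 18.1% of its calls were then higher (551 against 2490 lower) in place of 48.3%. The shift remained without library 9, where library size alone put the median gene at -0.56 in place of 0.03. Of its calls 23.3% were then higher in place of 49.2%. The split between higher and lower genes is thus relative to TMM, with or without library 9.

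Under TMM, the 2 directions differed in where on the scale of abundance they lay. The mean was taken over all 14 libraries, 9 of them of PMN-MDSCs, which places genes high in PMN-MDSCs further up that scale. Among the 130 genes with a mean of at least 1000 CPM, 46 were higher and 9 were lower in PMN-MDSCs. Between 100 and 1000 CPM the numbers were 307 and 113 of 1311 genes. Between 10 and 100 CPM, 535 were higher and 650 lower of 4848 genes. Between 1 and 10 CPM the lower genes were again the more numerous, with 320 higher and 543 lower of 4013 genes. The share of genes called was lowest under 1 CPM, where 81 were higher and 67 lower of 1347, and highest at 1000 CPM or more, at 42.3%. Without library 9, 68 were higher and 14 lower of the 135 genes at 1000 CPM or more, and 416 higher and 737 lower of 3938 between 1 and 10 CPM. Per gene length, 60 genes stood among the 100 with the highest mean TPM in both subsets. Of the top 100 of PMN-MDSCs, 42 were higher and 2 lower than in M-MDSCs, while of the top 100 of M-MDSCs, 15 were higher in M-MDSCs and 13 were lower there. Of all genes tested, 11.1% were higher and 11.9% lower in PMN-MDSCs. Each list was picked for a high level in the same libraries, which favours calls in its own direction, so these counts are a description.

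**Figure D2:**
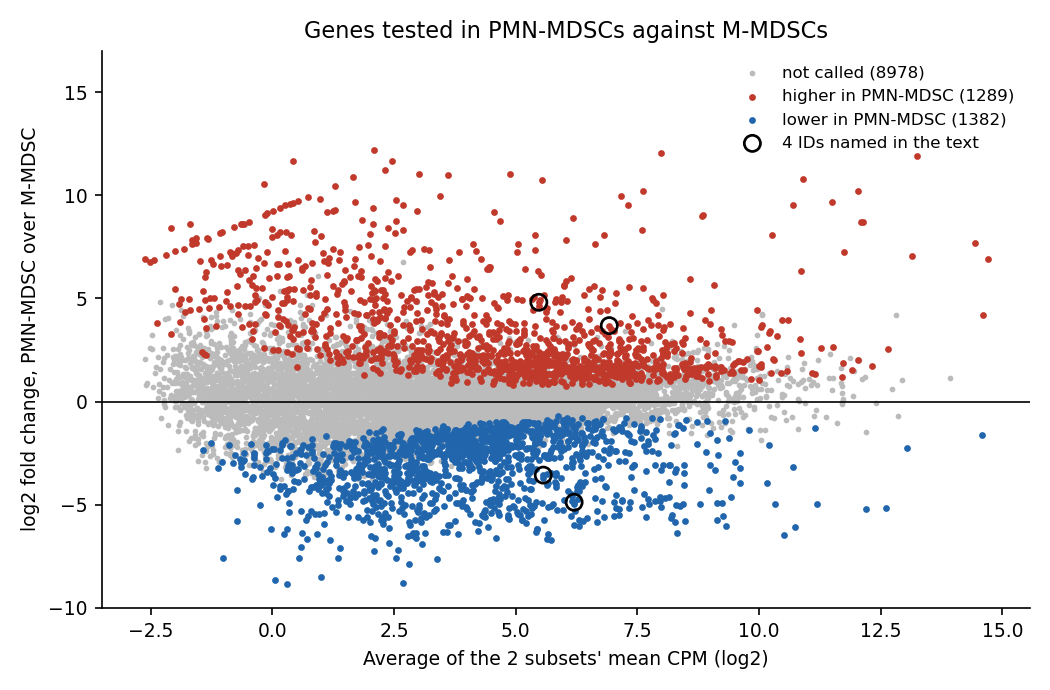
log2 fold change of PMN-MDSCs over M-MDSCs against the average of the subsets' mean CPM (log2) for the 11649 genes tested, with the 1289 higher genes in red, the 1382 lower ones in blue and the 4 named IDs ringed. Genes of high abundance lie mostly above the line, and the lower genes are concentrated at middle levels.

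Among the genes tested, the largest fitted differences were mostly on the PMN-MDSC side. A fitted difference of at least 64-fold was found for 174 higher genes and 51 lower ones. Among these, 35 genes had no count in any M-MDSC library and 3 had none in any PMN-MDSC library, so that their fitted fold depends on the prior count of the fit. Set against a floor of 3 counts over the whole subset, the mean CPM of these 35 genes was higher by at least 4.06 to 9.13 on the log2 scale. Leaving them aside, 139 higher and 48 lower genes reached 64-fold. Without library 9, 155 higher and 52 lower genes did so in the fit, genes at 0 included. No gene had at least 10 counts in all 9 PMN-MDSC libraries and 0 in all M-MDSC libraries, but 7 did so over the 8 PMN-MDSC libraries other than library 9. In the other direction 3 genes were at 0 in all 9 PMN-MDSC libraries with at least 10 counts in every M-MDSC library. The counts of genes at 64-fold and at 0 compare subsets of unequal size, 9 PMN-MDSC and 5 M-MDSC libraries. A gene is more easily at 0 throughout the smaller subset. A gene present in a single subset may also pass the filter on low counts more easily in the larger one. How much of the excess on the PMN-MDSC side comes from this was not tested.

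The called genes differed in how cleanly the libraries separated. On TMM-scaled CPM, all 9 PMN-MDSC libraries lay above all 5 M-MDSC libraries for 391 of the 1289 higher genes, against 415 (3.56%) of all genes tested. They lay below all 5 for 960 of the 1382 lower genes, against 1044 (8.96%) of all. With library 9 set aside, the same called genes separated fully in 757 higher and 1030 lower cases, so the contrast between directions was much smaller. The share of all genes was not computed for that setting. At least 8 of the 9 libraries lay beyond every M-MDSC library in 71.1% of the higher genes and 87.1% of the lower ones, where 10.6% and 16.5% of all genes tested did so. The genes were called on these same libraries, which favours separation, so the numbers in this paragraph are a description. The lone library was library 9 in 366 of the 525 higher genes that missed by a single library. In that library, 54.1% of the higher genes exceeded the M-MDSC maximum, against 80.6% to 97.6% in the other 8. Over all genes tested the share above the M-MDSC maximum was 24.97% in library 9 and 28.8% to 31.5% in the others. Of the lower genes, 90.9% lay below the M-MDSC minimum in library 9 and 91.3% to 94.2% in the others. Library 9 stood apart in the background of that share, since 54.0% of all genes tested lay below the M-MDSC minimum there, against 28.7% to 34.3% in the other 8.

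The precision of the fold changes was limited. The 95% interval of the fold change, which covers the spread between libraries, lay within 2-fold either way for 600 genes (5.15%) with all libraries and for 1635 genes (14.1%) without library 9. It lay within 4-fold for 4654 genes, and for 5478 (47.2%) without library 9. For the remaining genes the interval reached beyond 4-fold in at least one direction. All genes tested are counted here, called ones included, so the shares do not measure the room left among genes not called.

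The 14 libraries came in 2 series by the first part of their titles, GAR4079 with 5 PMN-MDSC and 3 M-MDSC libraries and PAT4694 with 4 and 2. In series GAR4079 alone, 3365 of 12028 genes (28%) were called, 1720 (14.3%) higher and 1645 (13.7%) lower. In series PAT4694, which holds library 9, 1 of 11501 genes (0.00869%) was called, a lower one, and 0% were called higher, while 1485 genes had an unadjusted p under 0.05 in the same edgeR test. Of the 3244 genes called in GAR4079 and tested in both series, 2929 (90.3%) had the same sign in PAT4694, against 76.5% of all genes tested in both. Without library 9 this series gave 123 calls of 11446 genes (1.07%), 38 (0.332%) higher and 85 (0.743%) lower. Of the 3240 genes called in GAR4079 and tested in both, 3209 (99.0%) then had the same sign there, against 84.1% of all genes. Their median difference was 2.06 on the log2 scale in GAR4079 and 1.84 in the same direction in PAT4694. With the series as a term in the fit of all 14 libraries, 2688 genes were called.

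The genes that separate neutrophils from monocytes in healthy dogs separated the MDSC subsets in the same direction. Of the 50 genes of the PMN list, 47 were higher in PMN-MDSCs and 0 were lower, with a median log2 fold change of 4.87. Of the 50 genes of the MONO list, 39 were lower and 0 were higher, with a median of -4.68. Over all genes tested, 11.1% were higher and 11.9% lower, and the median was 0.14. Without library 9 the counts were 48 and 49, where 18.5% of all genes were higher and 19.1% lower. In the full set, scaling with the size factors of DESeq2 gave 47 and 36, where 1391 and 1365 of all 11649 genes were called. Library size alone gave 46 and 49, where 551 higher and 2490 lower genes were called in all. Genes of the 2 lists define the lineages by their choice, and the counts describe the identity of the sorted cells.

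**Figure D3:**
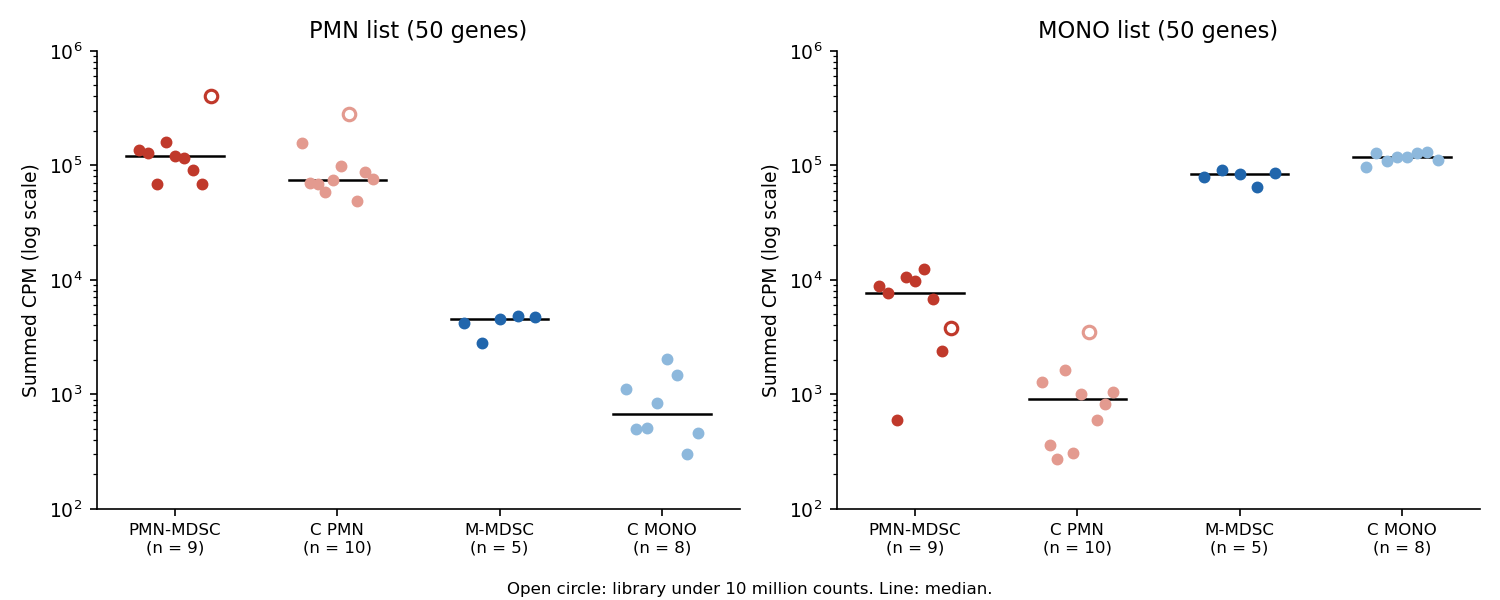
Summed CPM (log scale) of the PMN list and of the MONO list in each library of PMN-MDSCs, C PMNs, M-MDSCs and C MONOs, with medians as lines and libraries under 10000000 counts as open circles. PMN-MDSC libraries reach 12317 CPM of the MONO list, and M-MDSC libraries hold 2776 to 4865 CPM of the PMN list.

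The PMN list summed to between 68528 and 402814 CPM in the PMN-MDSC libraries (median 120634), and the highest value was that of library 9. The next highest was 159113 CPM. In the M-MDSC libraries it summed to 4154, 2776, 4504, 4865 and 4751 CPM. No PMN-MDSC library came near these values, while M-MDSCs lay above the C MONO libraries, which held 301 to 2019 CPM (median 676). At least 10 counts were found for 39 to 49 of the 50 genes in the M-MDSC libraries.

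The MONO list gave the widest range within PMN-MDSCs. It summed to 596 CPM in library 3, 2378 in library 8, 3804 in library 9, 6734 in library 7, 7637 in library 2, 8766 in library 1, 9695 in library 5, 10667 in library 4 and 12317 in library 6. The C PMN libraries ran from 270.3 to 3505 CPM (median 911), and libraries 3 and 8 lay within that range. Its upper end is C PMN library 7, and without this library the highest C PMN value was 1634 CPM, so that library 3 alone remained within the range. The M-MDSC libraries held 79607, 90875, 84139, 64129 and 85441 CPM, below the lowest C MONO library (95673) in every case. As a percentage of the M-MDSC median, the PMN-MDSC libraries held between 0.709% and 14.6% of the MONO list. Between 34 and 50 of its 50 genes had at least 10 counts in a PMN-MDSC library.

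Within the MONO list, the genes did not stand in a single ratio. The mean CPM in PMN-MDSCs was 2.13% of that in M-MDSCs for the median gene, 1.57% to 8.27% for the middle 50% of genes, and 72.8% for the highest. In the conventional cells the median gene in C PMNs was at 0.541% of its C MONO level, and the highest at 8.12%. For the PMN list the median gene in M-MDSCs was at 5.75% of its PMN-MDSC level, against 1.02% in C MONOs relative to C PMNs. The part of these transcripts of the other lineage in the calls was not tested. The PMN list summed higher in each M-MDSC library than in any C MONO library. The MONO list summed higher in 7 of the 9 PMN-MDSC libraries than in any C PMN library (8 of 9 without C PMN library 7). List genes are among those compared below, and a link between these sums and the differences given there was not tested.

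The rule for single genes gave 2 IDs of each direction, those with the smallest FDR, at least 2-fold and with no overlap of libraries on TMM-scaled CPM. They rank 7 and 11 by p-value among all genes for the higher pair, and 1 and 2 for the lower pair. By size of difference they rank between 485 and 979, so they were picked by p-value and lack of overlap and are not the largest differences.

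ENSCAFG00000010470, higher in PMN-MDSCs, ran from 7.14 to 147 CPM over the 9 PMN-MDSC libraries with a median of 88.3. In the M-MDSC libraries it was at 4.85, 3.74, 3.93, 7.25 and 3.63 CPM. The lowest PMN-MDSC value is that of library 9, which on plain CPM falls just under the highest M-MDSC value and lies above it once TMM factors are applied. The other 8 libraries start at 37.9 CPM. The log2 fold change was 4.81 with an SE of 0.46 (FDR = 1.23e-05 by edgeR's quasi-likelihood test with Benjamini-Hochberg adjustment), and 4.89 without library 9 (FDR = 2.63e-06 by edgeR). Its level in C PMNs was 32.7 CPM at the median and at most 63.7, so that 6 of the 9 PMN-MDSC libraries lay above the highest C PMN library.

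ENSCAFG00000003487, also higher, ran from 81.1 to 274 CPM in PMN-MDSCs with a median of 217, and was at 27.3, 29.3, 27.9, 23.4 and 45.3 CPM in M-MDSCs. The libraries did not overlap, and library 9 again gave the lowest PMN-MDSC value. The log2 fold change was 3.68 with an SE of 0.37 (FDR = 2.45e-05 by edgeR). C PMNs ran from 71.6 to 292 CPM and H PMNs from 261 to 298, and every monocyte library was at 33.3 CPM or less.

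ENSCAFG00000002448, lower in PMN-MDSCs, was at 0.476 to 5.57 CPM there with a median of 2.63, and at 132, 133, 80.3, 120.3 and 256 CPM in M-MDSCs. The log2 fold change was -4.88 with an SE of 0.42 (FDR = 1.08e-05 by edgeR). C MONOs ran from 70.1 to 235 CPM, over nearly the same range as M-MDSCs. ENSCAFG00000016923, also lower, was at 0.794 to 8.03 CPM in PMN-MDSCs with a median of 5.47, and at 128, 97.4, 92.5, 67.5 and 65.7 CPM in M-MDSCs. Its log2 fold change was -3.57 with an SE of 0.31 (FDR = 1.08e-05 by edgeR). For both IDs the highest PMN-MDSC library lay more than 8-fold under the lowest M-MDSC library.

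**Figure D4:**
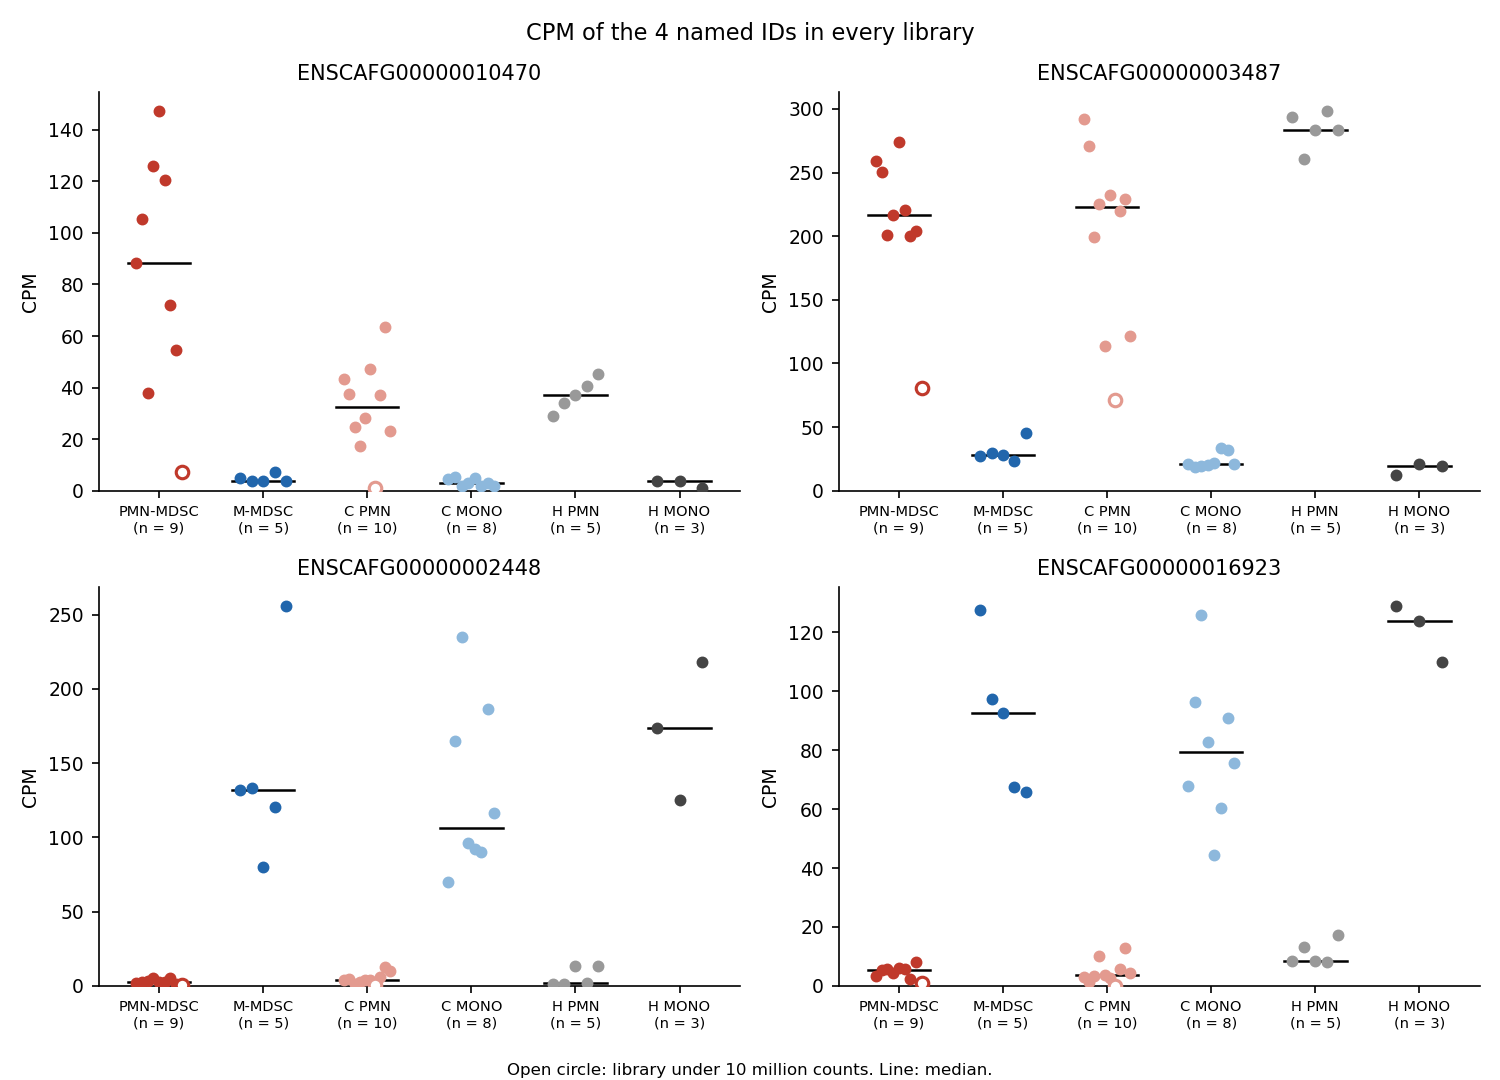
CPM of the 4 IDs in every library of the 6 populations, with medians as lines and the libraries under 10000000 counts as open circles. The 2 upper IDs are high in PMN-MDSCs, C PMNs and H PMNs, and the 2 lower IDs in M-MDSCs, C MONOs and H MONOs.

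In series PAT4694 alone, with library 9, the 4 IDs kept their direction at 4.33, 3.76, -5.27 and -3.07 on the log2 scale, and none was called (FDR between 0.0749 and 0.169 by edgeR). Between C PMNs and C MONOs their log2 fold changes were 4.26, 4.21, -3.70 and -3.19. The MDSC difference minus the conventional one was 0.61 (SE 0.51), -0.48 (SE 0.38), -1.12 (SE 0.52) and -0.31 (SE 0.50), and none of the 4 passed the test of that difference (FDR between 0.167 and 0.737 by edgeR).

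Most of what set the MDSC subsets apart also set apart the conventional neutrophils and monocytes of tumor-bearing dogs. The pairs share no library, but they may share dogs, since the paper speaks of PMNs and PMN-MDSCs of the same patient. The labels give no dog, so the agreement cannot be read as agreement between separate dogs. In the conventional pair, 7387 of 11261 genes (65.6%) were called, 3551 (31.5%) higher and 3836 (34.1%) lower in C PMNs than in C MONOs. Of the 1289 genes higher in PMN-MDSCs, 1136 were tested in the conventional pair, and 988 of them (87.0%) were higher in C PMNs, 20 were lower and 128 were not called. Of the 1382 lower genes, 1370 were tested, and 1265 (92.3%) were lower in C PMNs, 4 were higher and 101 were not called. Among genes not called between the MDSC subsets, 29.7% were higher and 28.7% lower in C PMNs. As a share of the conventional calls, the 988 and 1265 genes were 28.1% of 3510 higher and 34.0% of 3720 lower genes tested in both. With library size alone as the scaling, whose MDSC calls are mostly lower, the shares of the MDSC calls were 75.5% and 96.4%. Under that scaling 1471 of all 11261 genes were higher and 5735 lower in the conventional pair, so the 2 shares have unlike backgrounds.

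Without the PMN-MDSC and C PMN libraries under 10000000 counts, 8201 of 11376 genes (72.1%) were called in the conventional pair, 3922 (34.5%) higher and 4279 (37.6%) lower. Of the genes called between the MDSC subsets without library 9, 88.5% of the higher and 92.5% of the lower ones tested there were called the same way. They made up 45.5% and 49.1% of the conventional calls tested in both.

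At the median of the genes called in either pair, the difference between the MDSC subsets was smaller than that between the conventional cells. Genes higher in C PMNs had a median log2 fold change of 1.85 there and of 1.01 in PMN-MDSCs over M-MDSCs, and genes lower in C PMNs had -2.51 and -1.17. These genes were chosen on the conventional side, which favours a larger difference there. Chosen on the MDSC side, the contrast was milder. Genes higher in PMN-MDSCs had medians of 2.30 in the MDSC pair and 2.64 in the conventional pair, and genes lower had -2.66 and -3.38. All of these medians are a description. Tested gene by gene in a single edgeR fit of the 4 populations, the MDSC difference departed from the conventional one for 1098 of 13073 genes (8.4%), 765 (5.85%) above it and 333 (2.55%) below it. That fit treated all libraries as unrelated, although some may come from the same dog. Without both low libraries, 2351 genes (18%) were called, 1404 (10.7%) above and 947 (7.24%) below. The count was moved by over 1.5 times by 5 single libraries. It was 1715 without PMN-MDSC library 3, 2014 without C PMN library 7, and 692, 613 and 661 without M-MDSC libraries 3, 4 and 5. The genes below numbered 507 without PMN-MDSC library 8 and 508 without library 9. Scaling by library size alone gave 897 calls, 91.2% of them above in place of 69.7%.

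**Figure D5:**
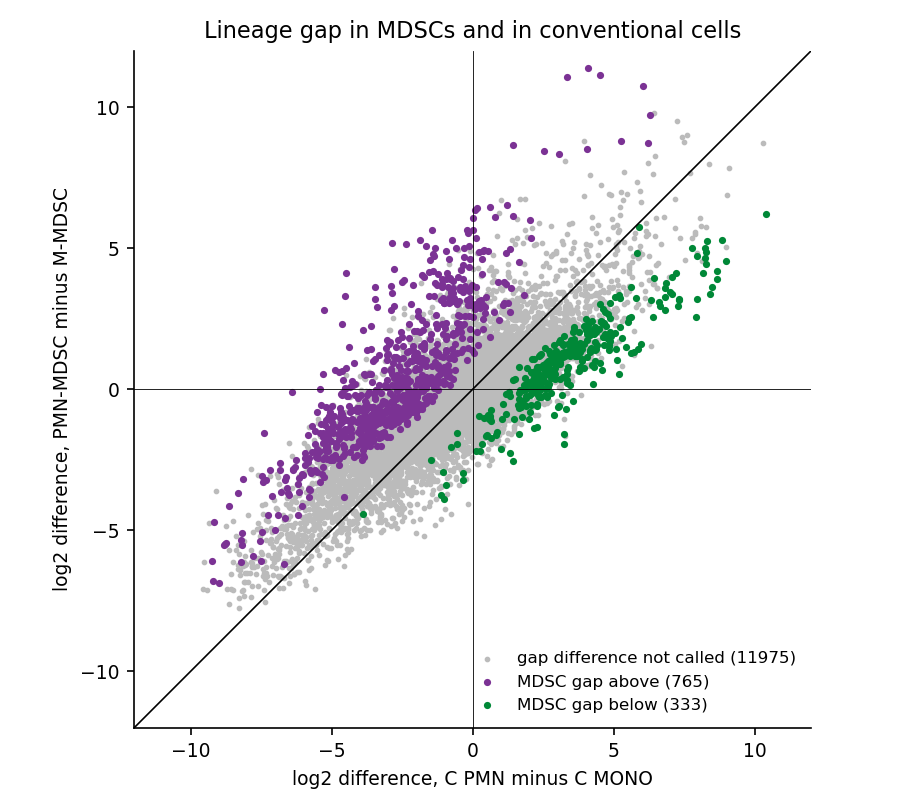
log2 difference of PMN-MDSCs minus M-MDSCs against that of C PMNs minus C MONOs for 13073 genes (mean log2 CPM with TMM factors), with the 765 genes whose MDSC difference was above the conventional one in purple and the 333 below it in green, and the line of equal differences. Most colored genes lie between the horizontal axis and that line or across the axis, where the difference is smaller in MDSCs or has the other sign.

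Of the 765 genes above, 411 had a difference of the same sign and smaller size in MDSCs, 294 had the other sign and 60 had the same sign and a larger size. Their median log2 CPM was 2.53 in PMN-MDSCs, 2.89 in M-MDSCs, 0.02 in C PMNs and 3.46 in C MONOs. The lowest of these 4 medians was that of C PMNs, and single genes of the group departed from this order. The PMN-MDSC level had moved further from its conventional counterpart than the M-MDSC level in 91.0% of them, and in 90.5% with library size alone. Of the 333 genes below, 252 had a smaller difference of the same sign in MDSCs, 70 the other sign and 11 a larger one. Their median log2 CPM was 5.75 in PMN-MDSCs, 4.73 in M-MDSCs, 6.98 in C PMNs and 3.80 in C MONOs. Here the PMN-MDSC side was the larger in 68.2%, and in 32.9% with library size alone, so that this share depends on the scaling. C PMNs came from the dense pellet and both MDSC subsets from the PBMC layer, and layer and cell state cannot be told apart in this difference.

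Genes of the lineage lists departed from the conventional difference in a single direction each. They were chosen for a difference of at least 50-fold between the same cell types of healthy dogs. That choice favours a smaller difference in MDSCs, so the direction is a description. For the PMN list, 22 of 50 genes had an MDSC difference below the conventional one and 0 above, and 34 were below without both low libraries, where 2.55% and 7.24% of all genes tested lay below. For the MONO list, 7 of 50 were above and 0 below, and 22 were above without these libraries, where 5.85% and 10.7% of all genes tested lay above. With library size alone the counts were 15 and 16, where 79 of all 13073 genes tested lay below and 818 above. The medians of the lists, 4.87 and -4.68 in MDSCs, were 7.66 and -6.32 in the conventional cells.

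A smaller group of genes was called between the MDSC subsets but not called, or called the opposite way, in the conventional cells. Genes not called there may still differ. The 20 genes higher in PMN-MDSCs than in M-MDSCs but lower in C PMNs than in C MONOs had median log2 fold changes of 3.02 and -2.23. The 4 genes of the opposite kind had medians of -1.90 and 1.08. Without both low libraries the 2 kinds numbered 42 and 9, and with library size alone 21 and 0, so that the second kind depends on the scaling. Genes of both kinds were picked for being called in opposite directions, and their values are a description.

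A further 153 genes higher in PMN-MDSCs, and 12 lower ones, were not tested in the conventional pair because their counts there were too low. The 153 genes had a median of the mean CPM of 2.36 in PMN-MDSCs, 0.0438 in M-MDSCs, 0.185 in C PMNs and 0.120 in C MONOs. In healthy dogs it was 0.196 in H PMNs and 0.0592 in H MONOs. Their median log2 fold change over M-MDSCs was 6.58, or 5.70 with the 30 genes that had no count in M-MDSCs set at the floor. At least 10 counts were present in 7 or more of the 9 PMN-MDSC libraries for 67 of these genes, and in 4 or fewer for 8. Without library 9, 147 of the 153 were called again. That PMN-MDSCs stand highest follows from how these genes were picked, and the level there is given as a description.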

How the data were processed

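RNA of sorted cells was made into Smart-seq2 libraries, a full-length protocol for little RNA, and sequenced in pairs. Reads trimmed with skewer were mapped by the authors with HISAT2 (CanFam3.1 with spike-in sequences added), Picard 1.92 marked duplicates, and featureCounts of Subread 1.5.0 counted unique exon reads. Whether duplicates were removed is not given in the sources used here. The authors deposited counts without normalization for 24580 Ensembl IDs and 92 spike-ins, CPM (counts scaled to a library total of 1000000) and TPM, for which the gene length used is not given in the sources used here. A further CPM table repeats the first and was not used. All sample columns were mapped to labels, and 0 were left over. Spike-in rows were left out of tests.

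The counts were tested with edgeR 4.0.16 (glmQLFit, glmQLFTest) in R 4.3.3 after TMM and filterByExpr with default settings, with p-values adjusted by Benjamini-Hochberg over all genes tested and called at an FDR of at most 0.05. Fold changes are PMN-MDSC over M-MDSC, and intervals are 95%. Alternatives used DESeq2 1.42.0 and limma 3.58.1, other scalings and filters, the series, and single libraries left out. Those combining library 9 with scaling or series, those of the lists and named IDs without it, and the C PMN range without library 7, were added after the data had been seen. The tests were tried on simulated counts. Whether a library lay beyond others was judged on TMM-scaled CPM, list sums on CPM, and levels in the fit of 4 populations on log2 CPM with a prior count of 2. Composition was tested by two-sided exact permutation over libraries. Pathway and marker lists by symbol were not analysed here, since 0 IDs were matched to a symbol, and 2 IDs of each direction were named by the rule in the text. A list gene had a mean of at least 50 CPM in its lineage, 50-fold less in the other and no overlap of libraries, and the 50 highest were used. The members and lists were chosen with earlier results of these data known. Depth was 6299310 to 43296791 counts, and reads are not molecules, so that chi-square values and floors of 3 counts cover counting error only. Figures used matplotlib 3.10.9.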

Additional observations from a re-analysis of the deposited data

Results flagged for a closer look

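PMN-MDSC library 9 was far from the other 8 PMN-MDSC libraries in 9 of the measures examined, each time by a gap to its nearest neighbour that was large for the range of the 9 values. It had the fewest genes with at least 10 counts (3959, the next lowest 9582) and the fewest genes of the PMN list with at least 10 counts (28, the next 48). It had the highest share of counts in the 10 most abundant genes (58.7%, the next 28.9%), in the most abundant gene (17.7%, the next 7.51%) and the highest sum of the PMN list (402814 CPM, the next 159113). Its TMM factor was the lowest (0.151, the next 0.926), as were its median Spearman correlations with PMN-MDSCs (0.643, the next 0.864) and with M-MDSCs (0.610, the next 0.733). ENSCAFG00000003487 was at 81.1 CPM there, the next lowest library being at 200.1. In M-MDSCs the same ID stood out in library 5 at 45.3 CPM, the next highest being 29.3.

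Of 29 groups of values examined in this way, 10 held such a library, where chance gives about 1 in 20, and 9 of them are the same library. Its depth, 6299310 counts, was the lowest of the 9 but did not stand out by this measure.

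The difference between the lineages was not the same in MDSCs as in conventional cells for 1098 genes, by edgeR's test of the difference itself with Benjamini-Hochberg adjustment.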

How the results depend on the processing

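No paired analysis was possible because the labels give no dog for a library and the library numbers are names only. The 4 IDs were chosen for libraries that do not overlap, so their direction under left-out libraries is no sign of stability, and none was called in series PAT4694 alone. Counts of calls depended on the setting, and the cause was not tested beyond the settings' own construction. Between PMN-MDSCs and M-MDSCs the calls (higher, lower) were 4434 (2169, 2265) by DESeq2's Wald test, 5668 (2581, 3087) by limma voom with quality weights, 4649 (2380, 2269) with all 40 libraries in 1 fit, 4356 (2144, 2212) without library 9, 4520 (2236, 2284) with series as a term and without library 9, 1354 (584, 770) at an FDR of 0.01, 849 (538, 311) for genes with at least 10 counts in every library, which tests fewer genes, and 1 (0, 1) in series PAT4694. Under library size alone the higher genes numbered 551 and the lower 2490, and leaving out library 9 as well gave 4974 calls, 3817 lower. Single libraries left out gave 2069 to 4356 calls, 951 to 2144 higher and 1101 to 2212 lower. For C PMNs against C MONOs, library size alone gave 1471 higher genes, and at least 10 counts in every library 2017 calls (1091, 926). For the difference of the differences the calls (above, below) were 2206 (1444, 762) by DESeq2, 307 (183, 124) with at least 10 counts in every library, 2351 (1404, 947) without both low libraries and 0 (0, 0) in series PAT4694, where 1263 genes had an unadjusted p under 0.05 in edgeR. Library size alone gave 79 below. Single libraries left out gave 613 to 2014 calls, 411 to 1370 above and 197 to 644 below. At 1 CPM in place of 10 counts, PMN-MDSCs minus M-MDSCs was -1355 genes, which passed the exact permutation test without adjustment. The top 10 share differed by 9.28 to 14.8 percentage points with single libraries left out. In M-MDSCs the median sum of the PMN list was 3120 CPM with TMM factors, and that of the MONO list 56111 with them and 65726 with 20 genes a list. Depth limits the low genes, and library 9 most.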
